A study of Mus musculus with 8 samples.

Results

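The cytoplasmic ribosomal protein genes encode the protein part of the small (Rps) and large (Rpl) subunits of the ribosome. They were taken by name from the expression tables of E15.5 mouse germ cells. A gene was a member if its symbol was Rps or Rpl with a number and at most a suffix for a known copy (such as Rps4x, Rpl10l or Rpl22l1), an acidic stalk gene (Rplp0 to Rplp2) or Rpsa, with pseudogene symbols left out. The most abundant row was kept per name. This gave 83 genes of the 24631 gene names in both tables together, 30 of the small subunit, 46 of the large subunit and 7 paralogs (Rpl3l, Rpl7l1, Rpl10l, Rpl22l1, Rpl39l, Rps27l and Rps4l). All 83 were listed and tested in both sexes. Germ cells carrying an Oct4-EGFP transgene, in which the Oct4 promoter drives a fluorescent protein, had been sorted from the gonads of Snf5 CKO and control embryos. The 8 libraries held 2 replicates per genotype and sex. Snf5 CKO animals carried 1 floxed and 1 deleted Snf5 allele (Snf5fx/Δ) with TNAP-Cre, a Cre inserted in the Alpl gene that is active in primordial germ cells, and Snf5 (also called Smarcb1) belongs to the SWI/SNF complex, which moves nucleosomes. Control animals were of 3 genotypes, Snf5fx/Δ without Cre, Snf5fx/+ without Cre and TNAP-Cre with Snf5fx/+, so some of them also had a deleted allele or the Cre. The labels give a C57BL/6 background, whereas the methods of the study give a mixed one. Most libraries were pools of several animals, and some male Snf5 CKO libraries came from single animals.

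Ribosomal protein genes are among the most strongly transcribed genes of a growing cell, and a ribosome needs their products in matched amounts. Their messenger RNAs typically start in a run of pyrimidines, the terminal oligopyrimidine (TOP) motif, through which mTOR signaling adjusts their translation. Paralogs such as Rpl10l and Rpl39l are known for expression in male germ cells, where they stand in for the X-linked genes Rpl10 and Rpl39; Rpl10l is needed for male meiosis.

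The starts of 3 pairs of paralog and parent gene, on which the male results turn, are shown here from the RefSeq promoter table (GRCm38.p6). Each line gives the 30 bases from 15 before the listed start to 15 from it on, 5′ to 3′, with runs of at least 5 pyrimidines in capitals; where the table lists several starts, the first is shown.
Rpl10 (chrX:74270801-74270830, plus strand): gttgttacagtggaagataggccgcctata
Rpl10l (chr12:66284387-66284416, minus strand): tttggCCTCCattttgcggctggcggtggg
Rpl39 (chrX:37085208-37085237, minus strand): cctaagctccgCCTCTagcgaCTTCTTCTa
Rpl39l (chr16:10170213-10170242, plus strand): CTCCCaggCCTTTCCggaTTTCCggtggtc
Rps27 (chr3:90213634-90213663, minus strand): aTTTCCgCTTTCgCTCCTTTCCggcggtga
Rps27l (chr9:66946071-66946100, plus strand): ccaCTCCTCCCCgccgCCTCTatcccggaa
The table held 62 of the 83 genes. A run of at least 7 pyrimidines lay in this window of 34 of the 62 (54.8%), against 21.3% of the 27025 genes of the table, where a gene with several listed starts counted if any of them held one. By the first listed start alone it was 31 of the 62 (50%) against 18.5%. In the whole 300-base promoter entry (250 before the start and 50 from it on), the letters CGGAAG, the core of an ETS-type site, were found on either strand for 41 of the 62 (66.1%) and 18.8% of all genes. The letters CTTTCC, which are all pyrimidines and can overlap a TOP run, were found on either strand for 33 (53.2%) and 29.3%. These are matches of letters in a window and not sites shown to be bound. Among the starts shown, that of Rpl10 holds no run of 5 pyrimidines, Rpl10l holds 1 of 5 bases, and the longest runs of Rps27 and Rps27l are 9 bases each.

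Values are FPKM, fragments scaled to transcript length and library size, with a separate table for each sex that had been normalized alone, so that levels are compared within a sex. A change is the difference of the mean log2(FPKM + 1) between Snf5 CKO and control, which understates the change of low genes, and it was tested with limma over all 11520 female or 12269 male rows with a mean of at least 1 FPKM. A gene was called at a Benjamini-Hochberg adjusted p under 0.05. As a check of the labels, Smarcb1 was at 23.4 and 22.3 FPKM in controls and 4.24 and 2.47 in Snf5 CKO in females (log2 change -2.48 ± 0.24 (SE), adjusted p = 2.69e-04). In males it was at 141 and 167 FPKM in controls and 8.73 and 10.1 in Snf5 CKO (log2 change -3.90 ± 0.18 (SE), adjusted p = 0.00212). Of the germ cell markers, Ddx4 and Dazl were above 200 FPKM in all 8 libraries. The libraries numbered 2 stood apart from those numbered 1 in every group for these genes: the median log2 difference between them was 0.69 (control) and 0.71 (Snf5 CKO) in females, and 0.73 and 0.87 in males. The median over all tested rows lay between -0.074 and -0.0093. At least 82 of the 83 genes were higher in the library numbered 2 in each group. Sample labels name the raw files of the libraries numbered 1 and 2 in different styles in both sexes. Male column headers also put the letters exp before the number in both genotypes, and female headers do not. The number was therefore taken to mark a shared batch. Different sequencers and read lengths were used in the study, and the sources do not assign them to libraries. Counts of called ribosomal protein and pathway genes are also given with the number as a block. So is the adjusted p of a named gene whose call it changes. The fit with the block leaves 1 residual degree of freedom in each sex. Its small p-values therefore rest mostly on variances that limma shares across rows, and not on the spread of the gene itself.

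**Figure D1:**
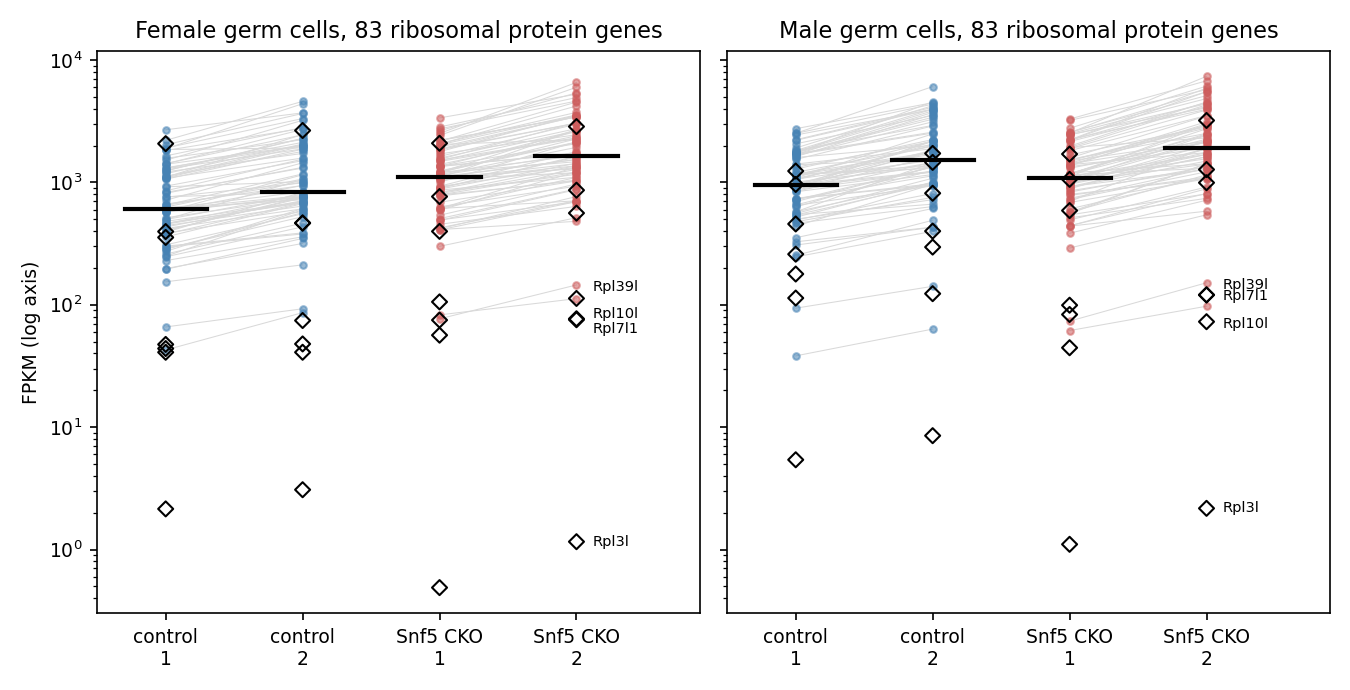
FPKM of the 83 ribosomal protein genes in each library (log axis), with females on the left and males on the right. Dots are the 76 genes that are not paralogs, diamonds the 7 paralogs, thick bars the median of all 83 and grey lines join a gene between the libraries of a group. For females the median went from 604 and 835 FPKM (controls) to 1097 and 1632 (Snf5 CKO), and for males from 949 and 1516 to 1078 and 1909.

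The 83 genes held a large part of the transcript pool. In females they made up 10.0% and 15.2% of the FPKM of all named loci in the controls numbered 1 and 2, and 16.2% and 22.6% in Snf5 CKO. The mean share was 12.6% ± 3.62 (SD, n = 2) for female controls, against 19.4% ± 4.53 (SD, n = 2) for female Snf5 CKO. Male shares were 13.7% and 19.4% in controls and 15.7% and 19.5% in Snf5 CKO, with means of 16.6% ± 4.02 (SD, n = 2) and 17.6% ± 2.70 (SD, n = 2). Thus the share was higher in Snf5 CKO than in control within each replicate number in both sexes, but by less in males, and the male difference was smaller than the spread between the libraries of a group. With 2 libraries a group, an exact two-sided permutation test cannot give a p under 0.333, so the share was not tested. The share is free of the scaling of a library but depends on other loci: Pi4ka, the most abundant named locus, held between 5.79% and 15.1% of the named FPKM, most in male Snf5 CKO numbered 2. Without the 10 most abundant other named loci, a denominator chosen after seeing the data, the shares of the male groups were 18.7% and 22.0%. In these sorted cells, fewer cells of a type and less RNA per cell cannot be told apart.

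**Figure D2:**
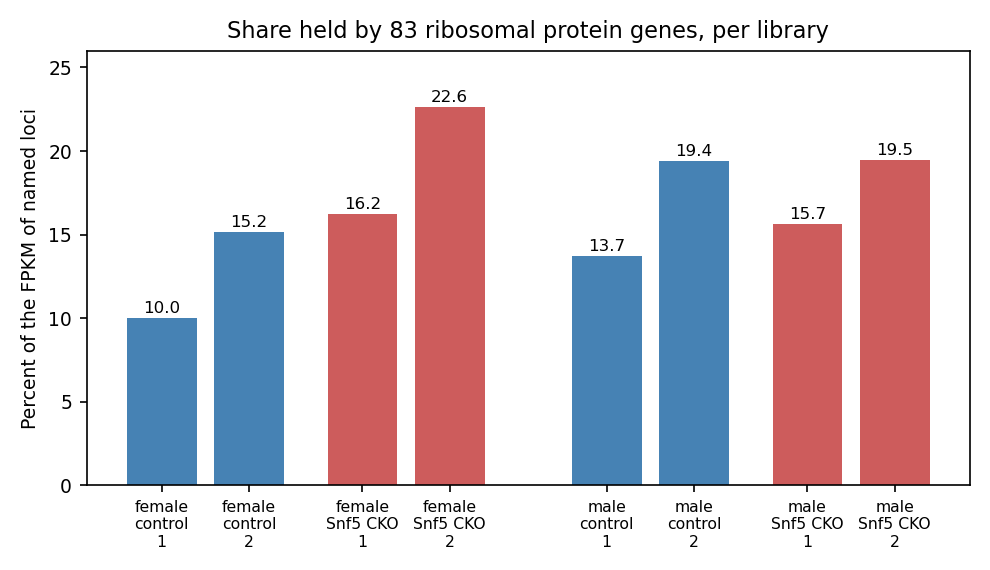
Share of the FPKM of named loci held by the 83 ribosomal protein genes in each library, in percent, with controls in blue and Snf5 CKO in red. In both sexes the library numbered 2 stands above the library numbered 1 of its group, and the female Snf5 CKO libraries stand at 16.2% and 22.6% against 10.0% and 15.2% in controls.

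In female germ cells, most ribosomal protein transcripts were at higher levels in Snf5 CKO than in control within each replicate number. The median change of the 83 genes was 0.66 on the log2 scale (quartiles 0.42 and 0.96), against -0.13 over all tested rows, and 81 of 83 had a change above 0. Within the libraries numbered 1 the median was 0.67 and within those numbered 2 it was 0.65, and 79 genes were higher in Snf5 CKO within both numbers (42.0% of all tested rows were). Both Snf5 CKO libraries lay above both controls for 44 genes, with 36.4% of all tested rows doing so, and both lay below for Rpl3l alone, with 45.1% of all tested rows doing so. At an unadjusted p under 0.05, 23 were higher and 1 lower, against 29.0% and 37.1% of all tested rows, and 1 was lower within both replicate numbers, against 50.7%. Of the 83 genes, 20 rose and 1, Rpl3l, fell. This is 24.1% of the genes, near the 27.0% of all tested rows that rose, so the count alone is not particular to them; 34.7% of all tested rows fell. With the replicate block, 73 genes rose, against 34.1% of all tested rows, and Rpl3l fell, against 42.6%. With a further limit of 1 on the size of the log2 change, 12 rose and none fell, against 17.3% and 21.6% of all tested rows. Rpl3l, the gene that fell, lay just short of that limit.

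Among the genes with large female changes were members of both subunits. Rps15, whose product is needed for export of the small subunit from the nucleus, was at 392 and 830.3 FPKM in controls and 1239 and 2130.4 in Snf5 CKO (log2 change 1.51 ± 0.46 (SE), adjusted p = 0.0259). Its row covers far more of the genome than the annotated gene, as did the rows of 14 of the 83 genes in the female and 12 in the male table (over 2000 bases beyond the GENCODE gene), Rps4x (female), Rpl38, Rpl5 and Rps4l among them. Rps4x, the X-linked Rps4, was at 455 and 689.8 FPKM in controls and 1354 and 1722 in Snf5 CKO (log2 change 1.44 ± 0.34 (SE), adjusted p = 0.00893). Rpl38, which takes part in the translation of Hox transcripts in the embryo, was at 577 and 1153 FPKM in controls and 1538 and 3076 in Snf5 CKO (log2 change 1.41 ± 0.50 (SE), adjusted p = 0.0429). All of these groups were apart, with the higher control below the lower Snf5 CKO library. At the other end, Rps20, a protein of the small subunit, was at 1570.0 and 2232 FPKM in controls and 1399 and 2399 in Snf5 CKO (log2 change -0.031, adjusted p = 0.956). The groups overlapped for Rps20, and its sign changed under some settings: it was 0.13 after median-of-ratios scaling.

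The female calls depended on the fit and on which libraries were in it. Each fit without 1 library sets unequal shares of the replicate numbers against each other. After scaling each library to the same sum over named loci, 42 of the 83 genes rose, against 2871 of all 11520 tested rows. The nearness of the count to that of all rows in the main fit thus depended on the scaling. Of the genes named here, Rplp0, Rpl5, Rpl7l1, Rpl3l kept their call without any single library. Rps15 was not called without control 1 or Snf5 CKO 2. Rps4x was not called without control 1. Rpl38 was not called without control 1 or Snf5 CKO 2. The median change was 0.35 without control 1, 1.02 without control 2, 1.03 without Snf5 CKO 1 and 0.34 without Snf5 CKO 2. Within the libraries numbered 1 and 2, where the numbers are balanced, it was 0.67 and 0.65. The median of the 83 genes stayed 0.79 above that of all tested rows in the main fit and 0.80 and 0.81 above it under both scalings. It was 0.52 above it after removal of a trend on transcript length, the 83 genes being short (median transcript length 1094 bases, against 3276 over all tested rows).

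**Figure D3:**
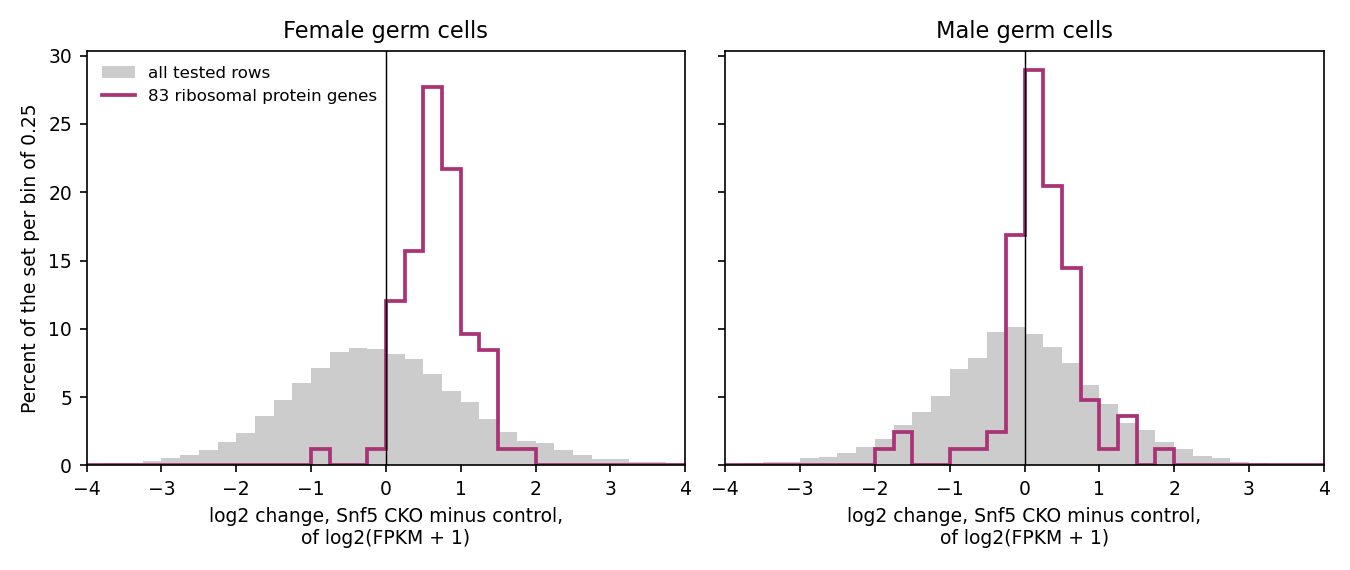
Log2 change between Snf5 CKO and control of the 83 ribosomal protein genes (purple line) and of all tested rows (grey), as percent of each set per bin of 0.25. The female genes lie to the right of 0 with a median of 0.66, the male genes close to 0 with a median of 0.16 and with paralogs at both ends.

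In male germ cells the direction of the family depended on how the libraries were scaled, and 4 of the 6 called genes were paralogs. The median change was 0.16 (quartiles 0.0083 and 0.48), against -0.072 over all tested rows, with 62 of 83 above 0. It turned with the scaling: after scaling to the same sum over named loci, which moved the median of all rows to -0.24, it was -0.033. After median-of-ratios scaling, which moved that of all rows to 0.070, it was 0.32. Relative to all tested rows the median was 0.23 higher in the main fit and 0.21 and 0.25 under these scalings, and 0.14 after removal of the trend on transcript length. Of the 83 genes, 3 rose (with 21.0% of all tested rows rising): Rps27l, Rpl10 and Rpl11. Another 3 fell (with 25.3% of all tested rows falling): Rpl10l, Rpl39l and Rpl3l. With the replicate block, 44 rose and 11 fell, against 35.1% and 41.2% of all tested rows. Both Snf5 CKO libraries lay above both controls for 10 genes and below them for 3, where 34.6% and 40.0% of all tested rows did so. All 6 had a log2 change over 1 in size, against 14.4% higher and 17.5% lower of all tested rows. The same counts, 3 and 3, were past an unadjusted p of 0.05, against 25.0% and 29.8%. Within both replicate numbers 55 genes were higher and 17 lower in Snf5 CKO, against 43.2% and 49.1% of all tested rows. The median was 0.12 within the libraries numbered 1 and 0.23 within those numbered 2. Scaling to the same sum changed the split of calls over all male rows from 2579 higher and 3107 lower to 1404 and 2590. No gene rose without control 1, without control 2 or without Snf5 CKO 2 (limma; 0, 3 and 2 higher at an unadjusted p under 0.05), while 3 fell in each of these fits. Rpl10l, Rpl39l and Rpl3l kept their call without any single library, and Rps27l and Rpl10 were called only without Snf5 CKO 1. The median itself was -0.21 without control 1 and -0.27 without Snf5 CKO 2, and 0.64 without control 2 and 0.66 without Snf5 CKO 1, so its sign also rested on single libraries, each such fit setting unequal shares of the replicate numbers against each other.

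Rpl10l, a single-exon copy of Rpl10 on chromosome 12 (chr12:66283379-66284401, mm10), was at 178 and 296 FPKM in controls and 44.5 and 72.7 in Snf5 CKO in males. Both Snf5 CKO libraries lay far below both controls, with means of 237 ± 83.2 and 58.6 ± 19.9 FPKM (SD, n = 2 each; log2 change -1.99 ± 0.36 (SE), adjusted p = 0.0106, and 3.34e-05 with the replicate block). Rpl10 itself, on the X chromosome (chrX:74270816-74273135), moved the other way, at 327 and 430.3 FPKM in controls and 832 and 1339 in Snf5 CKO (log2 change 1.49 ± 0.35 (SE), adjusted p = 0.0229, and 7.81e-05 with the replicate block). The FPKM of Rpl10l as a share of that of Rpl10, a ratio in which the scaling of a library cancels, was 54.5% and 68.8% in controls and 5.35% and 5.43% in Snf5 CKO. In females it was 6.15% and 5.08% in controls and 5.14% and 4.90% in Snf5 CKO. The 2 male controls thus stood far above the other 6 libraries. Female Rpl10l was at 40.9 and 47.8 FPKM in controls and 56.4 and 75.4 in Snf5 CKO, higher in both Snf5 CKO libraries (log2 change 0.55 ± 0.20 (SE), adjusted p = 0.0515, and 0.00220 with the replicate block).

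Rpl39l on chromosome 16 (chr16:10170228-10174911) and Rpl39 on the X chromosome (chrX:37082520-37085184) showed a like pattern. Male Rpl39l was at 259 and 399.6 FPKM in controls and 83.2 and 120.2 in Snf5 CKO (log2 change -1.67 ± 0.31 (SE), adjusted p = 0.0119, and 3.42e-05 with the replicate block). Male Rpl39 was at 628 and 1355 FPKM in controls and 1579.9 and 3487 in Snf5 CKO, with both Snf5 CKO libraries above both controls (log2 change 1.35 ± 0.60 (SE), adjusted p = 0.126, and 3.78e-05 with the replicate block). As a share of Rpl39, Rpl39l was 41.2% and 29.5% in controls and 5.27% and 3.45% in Snf5 CKO. In females the share was 3.82% and 3.26% in controls and 3.86% and 2.44% in Snf5 CKO, and the groups overlapped. Female Rpl39l rose, from 47.4 and 74.3 to 106 and 113 FPKM (log2 change 0.87 ± 0.24 (SE), adjusted p = 0.0180), and was not called without control 1. The coding sequences of Rpl10l and Rpl10 were identical at 84.7% of aligned bases and those of Rpl39l and Rpl39 at 85.0% (GENCODE transcripts), and how the counting treated reads that fit both copies is not given in the sources used here.

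Rps27l, a copy of Rps27 on chromosome 9 (chr9:66946118-66949519) that is known as a target of p53, had the largest positive male change. It was at 457 and 815 FPKM in controls and 1703 and 3203 in Snf5 CKO in males, 3.86-fold higher in the means (log2 change 1.93 ± 0.50 (SE), adjusted p = 0.0292, and 3.34e-05 with the replicate block). Rps27 was at 2514 and 6056 FPKM in controls and 2524 and 7351 in Snf5 CKO, with groups that overlapped (log2 change 0.14 ± 0.82 (SE), adjusted p = 0.900). As a share of Rps27, Rps27l was 18.2% and 13.5% in controls and 67.5% and 43.6% in Snf5 CKO. In females Rps27l was at 2071 and 2653 FPKM in controls and 2086 and 2856 in Snf5 CKO, and the groups overlapped (log2 change 0.059, adjusted p = 0.913; the sign turned after removal of the length trend). The female share of Rps27 was 94.0% and 57.8% in controls and 83.2% and 43.6% in Snf5 CKO, where Rps27 in control 2 has a failed quantification status. The Rps27l and Rps27 coding sequences were identical at 80.3% of aligned bases.

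**Figure D4:**
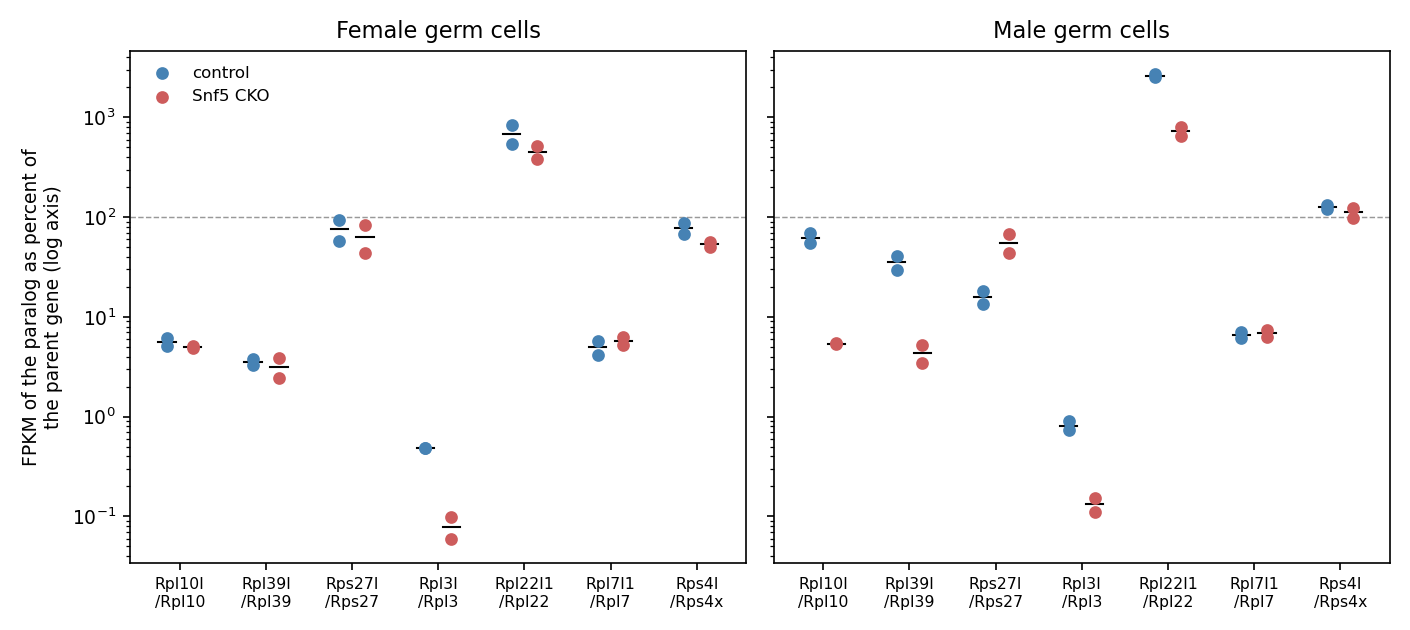
FPKM of each paralog as percent of that of its parent gene (log axis), per library, for 7 pairs, with controls in blue, Snf5 CKO in red, bars at the mean of the 2 libraries and a dashed line at equal levels. In males the Rpl10l, Rpl39l, Rpl3l and Rpl22l1 points of Snf5 CKO lie below those of control and the Rps27l points above; in females those of Rpl3l, Rpl22l1 and Rps4l lie below.

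The other paralogs are best known outside the germ line or are less studied. Rpl3l, a copy of Rpl3 known from muscle, fell in both sexes from very low levels. It was at 2.15 and 3.08 FPKM in controls and 0.489 and 1.16 in Snf5 CKO in females (log2 change -0.9995 ± 0.25 (SE), adjusted p = 0.0129). In males it was at 5.41 and 8.52 FPKM in controls and 1.10 and 2.17 in Snf5 CKO (log2 change -1.60 ± 0.31 (SE), adjusted p = 0.0134). It was the lowest of the 83 genes in every library, at under 1% of Rpl3. Rpl22l1 and Rpl22 formed the only pair of the 7 in which the copy exceeded the parent in every library: male Rpl22l1 was at 961 and 1723 FPKM in controls and 588 and 994 in Snf5 CKO (log2 change -0.75, adjusted p = 0.234 (1.42e-04 with the block)). Male Rpl22 was at 38.2 and 63.3 FPKM in controls and 73.4 and 151 in Snf5 CKO (log2 change 1.08, adjusted p = 0.0924 (2.65e-04 with the block)). The ratio of Rpl22l1 to Rpl22 was therefore 2515% and 2724% in controls and 801% and 657% in Snf5 CKO in males, without overlap, and 831% and 539.8% in controls and 518% and 386% in Snf5 CKO in females. Female Rpl22l1 alone was at 355 and 465 FPKM in controls and 398 and 561 in Snf5 CKO (log2 change 0.22, adjusted p = 0.525 (0.0317 with the block)), with groups that overlapped. Rpl7l1, which acts in nucleolar assembly, rose in females, from 43.9 and 40.9 to 74.9 and 76.8 FPKM (log2 change 0.83 ± 0.16 (SE), adjusted p = 0.00443). In males it was at 113 and 123 FPKM in controls and 99.1 and 120.4 in Snf5 CKO (log2 change -0.11 ± 0.19 (SE), adjusted p = 0.662). Rps4l, a copy of Rps4x on chromosome 6, rose in females, from 396 and 465 to 765 and 863 FPKM (log2 change 0.92 ± 0.25 (SE), adjusted p = 0.0179), but was called in none of the fits without 1 library. Male Rps4l was at 1237 and 1456 FPKM in controls and 1058 and 1273 in Snf5 CKO (log2 change -0.21, adjusted p = 0.640 (0.0110 with the block)). No usable coding sequence of Rps4l was found among the protein-coding transcripts of GENCODE, so its identity to Rps4x was not computed. Whether its values hold reads of Rps4x was not tested. With 2 libraries a group, the smallest p an exact two-sided permutation test of any of these ratios can give is 0.333.

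Over all 7 paralogs, 3 rose, 1 fell and 3 were not called in females (5 rose and 1 fell with the replicate block), where the median change was 0.55. In males 1 rose, 3 fell and 3 were not called (1 rose and 5 fell with the block), and the median was -0.75. The other 76 genes had a median of 0.68 in females, where 17 rose (68 with the block), and of 0.18 in males, where 2 rose (43 rose and 6 fell with the block). Of all tested rows, 27.0% of female and 21.0% of male ones rose and 34.7% and 25.3% fell; with the block 34.1% and 35.1% rose and 42.6% and 41.2% fell. Whether a change differed between the sexes was not tested, since the tables were normalized separately. Across the 76 genes, the female and the male change had a Pearson r of 0.21 and a Spearman rho of 0.23 (genes are not independent; they share the batch of their libraries), and 1 gene, Rpl11, rose in both sexes. With the replicate block 36 of the 76 did, Rpl10, Rpl39 and Rplp0 among them. How many of all tested rows rose in both sexes was not counted, so neither count is read as particular to these genes.

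**Figure D5:**
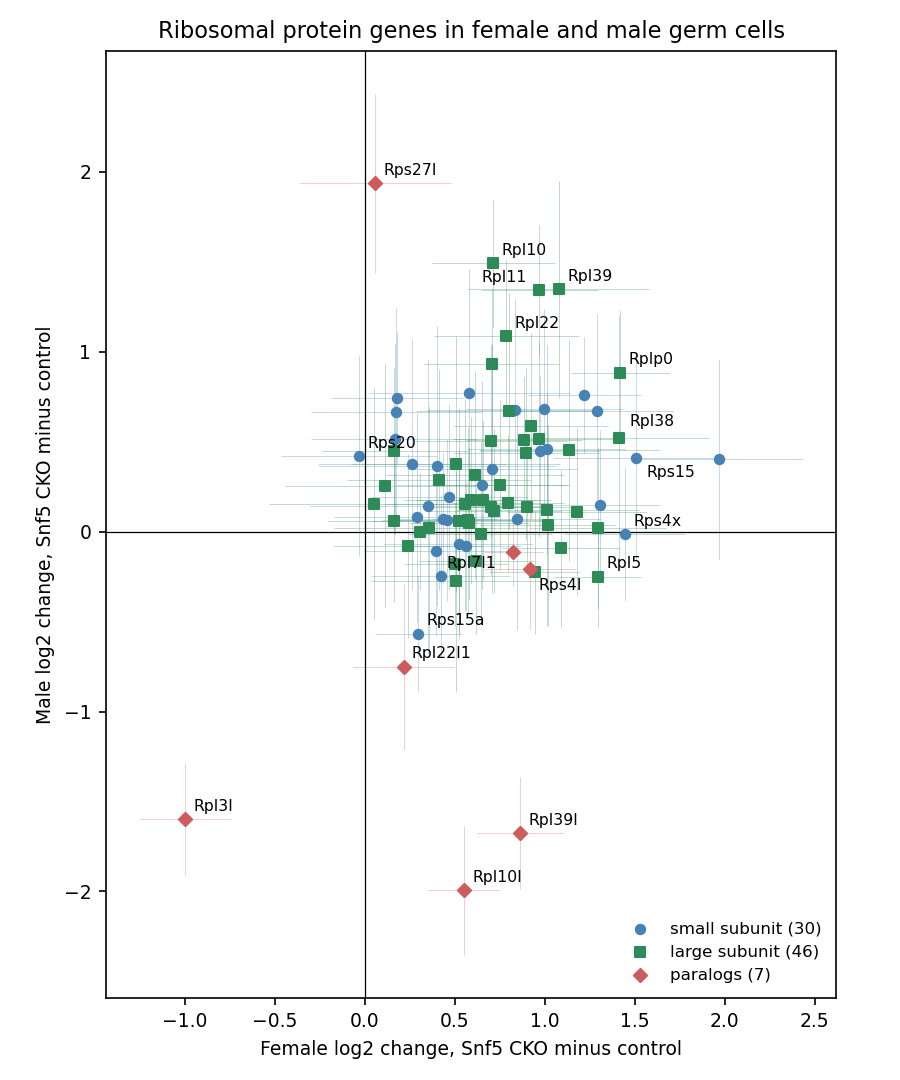
Log2 change between Snf5 CKO and control in females (x axis) and in males (y axis) for each of the 83 genes, with lines for ± 1 SE; circles are small subunit genes, squares large subunit genes and diamonds paralogs. Most genes lie to the right of 0 and within 1 of 0 in males, while Rpl10l and Rpl39l lie at -1.99 and -1.67 and Rps27l at 1.93 in males.

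Between the subunits, the 30 small subunit genes had a median change of 0.54 in females (7 rose, and 26 with the replicate block) and 0.36 in males (0 called, 0 also at an unadjusted p under 0.05, and 18 higher and 2 lower with the replicate block). The 46 large subunit genes had medians of 0.71 (10 rose, and 42 with the block) and 0.16 (2 rose; 25 rose and 4 fell with the block). The female counts without the block are 23.3% and 21.7% of the subunits' genes, near the 27.0% of all tested rows that rose, and the male ones lie below the 21.0% of all male rows. The male genes with the lowest values after the paralogs included Rps15a, which was at 93.8 and 141 FPKM in controls and 61.5 and 97.3 in Snf5 CKO (log2 change -0.57 ± 0.32 (SE), adjusted p = 0.203, and 4.11e-04 with the replicate block), with groups that overlapped. Rps6, the small subunit protein phosphorylated downstream of mTOR, was at 574 and 757 FPKM in controls and 863 and 1102 in Snf5 CKO in females (log2 change 0.56 ± 0.30 (SE), adjusted p = 0.145, and 4.75e-04 with the replicate block). In males it was at 838 and 1158 FPKM in controls and 783 and 1104 in Snf5 CKO (log2 change -0.083, adjusted p = 0.867). Rps18, often used as a reference gene, was at 1122 and 1788 FPKM in controls and 1873 and 3455 in Snf5 CKO in females (log2 change 0.84 ± 0.47 (SE), adjusted p = 0.156, and 1.79e-04 with the replicate block). Its male values were 2509 and 4356 FPKM in controls and 2490.2 and 4836 in Snf5 CKO (log2 change 0.070, adjusted p = 0.936). Rpsa, the laminin receptor protein of the small subunit, was at 378 and 682 FPKM in controls and 506 and 883 in Snf5 CKO in females (log2 change 0.40 ± 0.40 (SE), adjusted p = 0.414, and 0.00228 with the replicate block), with groups that overlapped. The male Rpsa values were 541 and 971 FPKM in controls and 493 and 916 in Snf5 CKO (log2 change -0.11, adjusted p = 0.864). The male signs of Rps6, Rps18 and Rpsa turned with the scaling of the libraries.

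The stalk, which recruits elongation factors to the large subunit, is formed by Rplp0, Rplp1 and Rplp2 on Rpl12. Of these 4 genes 1, Rplp0, rose in females, and 3 did with the replicate block, against 27.0% and 34.1% of all tested female rows. Female Rplp0 was at 297 and 379 FPKM in controls and 787 and 1028 in Snf5 CKO (log2 change 1.42 ± 0.28 (SE), adjusted p = 0.00422), and the groups were far apart. The male values of Rplp0 were 736 and 975 FPKM in controls and 1395 and 1749 in Snf5 CKO, also without overlap (log2 change 0.88 ± 0.35 (SE), adjusted p = 0.0936, and 9.21e-05 with the replicate block). Rplp1, the sixth of the 83 by mean FPKM in females, was at 2029 and 3654 FPKM in controls and 2056 and 4207 in Snf5 CKO there (log2 change 0.11, adjusted p = 0.872). In males it was at 1690.0 and 3724 FPKM in controls and 1975 and 4534 in Snf5 CKO (log2 change 0.25, adjusted p = 0.783 (0.00799 with the block)). Rplp2 had log2 changes of 0.61 in females and 0.32 in males (adjusted p = 0.313 (3.31e-04 with the block) and 0.684 (0.00403 with the block)). Rpl12 was at 249 and 597 FPKM in controls and 593 and 1216 in Snf5 CKO in females (log2 change 1.14 ± 0.50 (SE), adjusted p = 0.0888, and 6.49e-05 with the replicate block) and had a male change of 0.45 (adjusted p = 0.581 (0.00228 with the block)). In males 0 of the 4 were called, 0 at an unadjusted p under 0.05, and 4 rose with the replicate block. Of all tested male rows 21.0% rose, and 35.1% with the block.

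The X chromosome holds 4 of the genes, Rpl10, Rpl36a, Rpl39 and Rps4x. In females the median change of these was 1.02, and all 4 had both Snf5 CKO libraries above both controls, against 36 of 72 autosomal genes (paralogs left out; 36.4% of all tested rows). Female Rpl10 was at 665 and 941 FPKM in controls and 1097 and 1539.6 in Snf5 CKO (log2 change 0.72 ± 0.34 (SE), adjusted p = 0.110, and 1.71e-04 with the replicate block). Rpl36a was at 714 and 1444 FPKM in controls and 1503 and 2631 in Snf5 CKO (log2 change 0.97 ± 0.48 (SE), adjusted p = 0.118, and 1.04e-04 with the replicate block). Female Rpl39 was at 1242 and 2279 FPKM in controls and 2735 and 4619 in Snf5 CKO (log2 change 1.08 ± 0.50 (SE), adjusted p = 0.103, and 4.81e-05 with the replicate block). The library numbered 2 was the higher in every group for these genes. In females 1 of the 4, Rps4x, rose, and all 4 did with the block, against 27.0% and 34.1% of all tested rows. In males, besides Rpl10 and Rpl39, Rpl36a was at 653 and 1251 FPKM in controls and 884 and 1879.6 in Snf5 CKO (log2 change 0.51 ± 0.54 (SE), adjusted p = 0.475, and 7.74e-04 with the replicate block). Male Rps4x was at 925 and 1210.3 FPKM in controls and 852 and 1286 in Snf5 CKO (log2 change -0.016, adjusted p = 0.976), where the groups overlapped and the sign turned with median-of-ratios scaling. The male median of the 4 was 0.93, against 0.17 for the 72 autosomal genes. Among males 1 of 4 (Rpl10) rose, with 3 of 4 doing so under the block, against 21.0% and 35.1% of all tested rows.

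Loss of 1 copy of Rps19, Rpl5, Rpl11, Rps26, Rpl35a, Rps10 or Rps24 is a known cause of Diamond-Blackfan anemia, and Rpl5 and Rpl11 together bind Mdm2, the ubiquitin ligase of p53. Of these 7 genes 2, Rpl5 and Rpl11, rose in females (6 with the replicate block). In males 1, Rpl11, rose (4 rose and 1 fell with the block). Of all tested rows, 27.0% of female and 21.0% of male ones rose, so the counts without the block are not particular to these genes. With the block 34.1% and 35.1% rose and 42.6% and 41.2% fell. Rpl11 was at 577 and 767 FPKM in controls and 1109 and 1535 in Snf5 CKO in females (log2 change 0.97 ± 0.33 (SE), adjusted p = 0.0367). Its male values were 463 and 634 FPKM in controls and 1121 and 1690.4 in Snf5 CKO (log2 change 1.34 ± 0.36 (SE), adjusted p = 0.0339). Both Snf5 CKO libraries stood above both controls in each sex, although Rpl11 was not called in the fits without female control 1, control 2 or Snf5 CKO 2, nor in any male fit without 1 library. Rpl5 was at 154 and 212 FPKM in controls and 411 and 480.5 in Snf5 CKO in females (log2 change 1.29 ± 0.24 (SE), adjusted p = 0.00365). Its male values were 544 and 663 FPKM in controls and 439 and 581 in Snf5 CKO, where the groups overlapped (log2 change -0.25 ± 0.29 (SE), adjusted p = 0.507, and 0.00812 with the replicate block). The other 5 were not called in either sex: their female changes were 0.18 for Rps19, 0.65 for Rps26, 0.24 for Rpl35a, 0.47 for Rps10, 0.46 for Rps24, with adjusted p between 0.270 and 0.762. Their male changes were 0.66 for Rps19, 0.26 for Rps26, -0.080 for Rpl35a, 0.19 for Rps10, 0.066 for Rps24, with adjusted p between 0.390 and 0.915. With the block, Rps26, Rpl35a, Rps10, Rps24 rose in females and Rps19, Rps26, Rps10 in males. The male sign of Rpl35a and Rps24 turned with the scaling.

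Rps3a1, Fau, Rpl36al and Gnb2l1 (which encodes RACK1) also make ribosomal or ribosome-bound proteins, but the naming rule missed these 4. In females 2 of them rose, Rps3a1 at 705 and 873 FPKM in controls and 1651 and 1913 in Snf5 CKO (log2 change 1.18 ± 0.32 (SE), adjusted p = 0.0163). The other was Gnb2l1, at 304 and 463 FPKM in controls and 689 and 882 in Snf5 CKO (log2 change 1.05 ± 0.30 (SE), adjusted p = 0.0210). With the replicate block 4 of 4 rose. Of all tested female rows 27.0% rose, and 34.1% with the block. In males limma called 0 of 4, 0 at an unadjusted p under 0.05. With the block 2 rose and 1, Rps3a1, fell, against 35.1% and 41.2% of all tested male rows.

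Genes that make ribosomes or use them did not move in 1 direction. Of 10 genes of RNA polymerase I transcription, 7 rose and 1 fell in females, and 1 rose and 4 fell in males, against 27.0% and 34.7% of all female and 21.0% and 25.3% of all male rows. With the replicate block it was 8 and 1 in females and 3 and 6 in males, against 34.1% and 42.6% of all female and 35.1% and 41.2% of all male rows. The highest female change was that of Ubtf, the activator of ribosomal DNA, at 7.84 and 9.80 FPKM in controls and 46.9 and 36.3 in Snf5 CKO (log2 change 2.11 ± 0.21 (SE), adjusted p = 2.82e-04). At the other end Taf1b, of the selectivity factor SL1, was at 109 and 81.4 FPKM in controls and 32.6 and 27.7 in Snf5 CKO (log2 change -1.61 ± 0.20 (SE), adjusted p = 7.25e-04). Male Polr1b, the second largest subunit of RNA polymerase I, fell, from 102 and 70.3 to 35.4 and 27.2 FPKM (log2 change -1.42 ± 0.26 (SE), adjusted p = 0.0107). Of 15 small subunit assembly genes 6 rose and 2 fell in females and 2 rose and 5 fell in males (9 and 4, and 4 and 8, with the block). Heatr1, which acts in processing of the small subunit RNA, fell in both sexes (log2 change -1.45 in females and -2.33 in males). Rcl1 rose in females, from 15.9 and 15.1 to 133 and 127 FPKM (log2 change 2.99 ± 0.16 (SE), adjusted p = 9.57e-05). Of 17 large subunit assembly genes 5 rose and 4 fell in females and 2 rose and 3 fell in males (8 and 5, and 5 and 9, with the block). Of 9 genes of small nucleolar RNA guided modification, 5 rose and 2 fell in females (6 and 2 with the block). In males 5 rose and none fell, 0 also at an unadjusted p under 0.05, and with the block 7 rose and 2 fell. Dkc1, the pseudouridine synthase, was the highest male change (1.55, adjusted p = 0.00283). Of 5 nucleolar genes, 3 rose in females and 1 in males, and 4 did in each sex with the block. Npm1, a nucleolar chaperone, was at 664 and 839 FPKM in controls and 1304 and 1609.7 in Snf5 CKO in males (log2 change 0.96 ± 0.33 (SE), adjusted p = 0.0660, and 6.94e-05 with the replicate block).

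Of 27 initiation factors, 6 rose and 4 fell in females (14 and 7 with the block). In males 7 rose and 4 fell (13 and 9 with the block). Of all tested rows, 27.0% rose and 34.7% fell in females, and 21.0% and 25.3% in males. With the block it was 34.1% and 42.6% in females and 35.1% and 41.2% in males. Female Eif4a1, the RNA helicase of initiation, rose from 172 and 179 to 537 and 501 FPKM (log2 change 1.56 ± 0.21 (SE), adjusted p = 8.53e-04). Of 10 elongation and termination factors, 3 rose and 1 fell in females (6 and 1 with the block), and 1, Pabpc1, the poly(A) binding protein, fell in males (log2 change -0.97 ± 0.20 (SE), adjusted p = 0.0147), where none rose, 0 also at an unadjusted p under 0.05, and 2 rose and 6 fell with the block. The TOP gene Eef1a1, the main elongation factor, was at 1344 and 1573 FPKM in controls and 1889 and 2015 in Snf5 CKO in females (log2 change 0.42 ± 0.35 (SE), adjusted p = 0.321, and 0.00213 with the replicate block). In males it was at 2465 and 2664 FPKM in controls and 2072 and 2388 in Snf5 CKO (log2 change -0.20, adjusted p = 0.717 (0.0195 with the block)). Eef2 had changes of 0.42 and -0.47 (adjusted p = 0.169 (0.00799 with the block) and 0.134 (6.36e-04 with the block)). Of 13 tested genes of mTOR signaling and other regulators of growth, 4 rose and 4 fell in females and 4 rose and 2 fell in males (6 and 4, and 4 and 4, with the block). Mycn, a transcription factor that drives ribosome production, rose in both sexes: it was at 6.65 and 11.3 FPKM in controls and 142 and 138 in Snf5 CKO in females (log2 change 3.86 ± 0.25 (SE), adjusted p = 9.87e-05). Its male values were 15.1 and 14.0 FPKM in controls and 97.0 and 103 in Snf5 CKO (log2 change 2.70 ± 0.16 (SE), adjusted p = 0.00212). Myc lay under 1 FPKM in all 8 libraries and was not tested. Mtor itself was the lowest male change of that list, from 66.7 and 37.5 to 17.7 and 10.2 FPKM (log2 change -1.82 ± 0.38 (SE), adjusted p = 0.0163).

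Markers of other gonad cells moved with the groups. For comparison, 27.0% of all tested female rows rose and 34.7% fell, and 21.0% of male rows rose and 25.3% fell. The summed level of 7 Sertoli markers was 57.4 and 38.9 FPKM in controls and 245 and 285 in Snf5 CKO in males, where all 7 rose. It was 5.21 and 7.22 FPKM in controls and 16.9 and 15.8 in Snf5 CKO in females (3 tested, all rose), where Sox9 and Amh were under 1 FPKM in every library. That of 6 pre-granulosa markers was 9.35 and 12.1 FPKM in controls and 24.6 and 23.4 in Snf5 CKO in females (5 rose, 1 fell), where the defining gene Foxl2 was at 0.328 and 1.13 FPKM in controls and 1.67 and 2.07 in Snf5 CKO. In males the sum was 6.18 and 7.05 FPKM in controls and 27.8 and 30.4 in Snf5 CKO (2 tested, 1 rose). The 2 tested there were Amhr2 and Fst, and Amhr2 had the higher change. Summed male levels of 5 Leydig markers were 85.7 and 58.2 FPKM in controls and 19.2 and 15.1 in Snf5 CKO (3 fell). Those of 5 stromal markers were 17.5 and 8.98 FPKM in controls and 3.66 and 2.03 in Snf5 CKO (3 fell). Tested Sertoli markers thus rose in both sexes while Leydig and stromal markers were lower in male Snf5 CKO. Female sums of the Leydig list were 4.74 and 4.89 FPKM in controls and 12.0 and 11.8 in Snf5 CKO (2 tested, 1 rose). The row of Insl3, which had the larger of these changes, is shared with Jak3. Those of the stromal list were 11.0 and 5.61 FPKM in controls and 3.34 and 4.35 in Snf5 CKO in females (2 tested, 1 fell). The blood and endothelial list summed to 13.8 and 46.9 FPKM in controls and 27.6 and 70.4 in Snf5 CKO in females and 34.5 and 49.3 FPKM in controls and 32.4 and 33.8 in Snf5 CKO in males. Of 8 germ cell markers 3 rose and 3 fell in females and 5 fell in males, with sums of 4533 and 4357 FPKM in controls and 3107 and 3371 in Snf5 CKO in females and 5157 and 5593 FPKM in controls and 4477 and 5053 in Snf5 CKO in males. The part of these cells, and of the stage of the germ cells, in the changes of ribosomal protein genes was not tested. A limit of all values is that 61 of the 83 genes have pseudogenes with their name in GENCODE (299 genes in all), which share sequence with them, and that 2 female and 3 male members share a row with another named gene, such as Rpl13a with Snord33.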

How the data were processed

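Libraries were made by the authors from total RNA of sorted E15.5 germ cells with SMART-Seq v4, which does not mark the strand, and sequenced as paired ends. The methods of the study give different read lengths and sequencers, without saying which libraries had which. The deposited FPKM values came from TopHat and Cufflinks on mm10, with one table per sex; the submitters' processing notes list TopHat2 2.2.1 and Cuffdiff 2.1.1, whereas the methods of the study give version 2.1.1 for TopHat and 2.2.1 for Cufflinks, so the versions used are not certain. FPKM gives no depth, so depth per library is unknown and no counting interval is given. The 16 deposited columns of confidence bounds were not used.

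Named rows with a mean of at least 1 FPKM were fitted per sex as log2(FPKM + 1) with limma 3.58.1 (R 4.3.3; lmFit, eBayes with trend) and Benjamini-Hochberg adjustment. The script was tested on simulated data. Labels say that the 2 libraries of a group are biological replicates. The file names in the labels differ in style between replicates 1 and 2, and male column headers put the letters exp before the number. The numbers were therefore taken to mark a batch. Deviations of same-numbered libraries from their group means correlated across the 83 genes at r = 0.854 in females and 0.930 in males. Over all tested rows r was 0.500 and 0.607. These values describe these libraries only. The main fit has no block. With the block 1 residual degree of freedom is left, so its p-values rest mostly on the variances that eBayes shares across rows. Alternatives were other pseudocounts, filters, scalings (a common sum, median of ratios), variance settings, linear FPKM, a length trend removed, the block, and each library left out.

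The members and gene lists were chosen with earlier results of these data known. Named were, per sex, the 5 largest positive and 5 largest negative changes, the paralog, X-linked, stalk and Diamond-Blackfan genes, Rpsa, Rps6 and Rps18, the extremes of each pathway list and a few regulators; the results of some of these genes are not reported here. Gene lengths and coding sequences came from GENCODE, and 1 was added to the 0-based starts of the tables.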

Additional observations from a re-analysis of the deposited data

Results flagged for a closer look

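Rpl10l and Rpl39l moved in opposite directions in the 2 sexes. Every female Snf5 CKO library lay above both controls and every male Snf5 CKO library below both. The log2 change of Rpl10l was 0.55 in females and -1.99 in males (limma adjusted p = 0.0515 (0.00220 with the block) and 0.0106), and that of Rpl39l was 0.87 in females and -1.67 in males (limma adjusted p = 0.0180 and 0.0119). The difference between the sexes was not tested, because each sex has its own separately normalized table. No group of 2 libraries could be examined for a library far from the others.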

How the results depend on the processing

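Counts of called genes moved most. In females, 1 gene rose and 0 fell without the filter on low values or without moderation of the variances. Over all rows, 2136 of 23634 rose and 2685 fell without the filter, and 1084 and 1347 of 11520 without moderation. At a mean of at least 5 FPKM, where Rpl3l is not tested, 0 fell, against 3106 of 8516 rows. With the common sum 42 rose, and 40 with a common sum that leaves out the 83 genes. Over all 11520 rows, 2871 and 3360 rose in these fits. With the replicate block 73 rose, against 3932 of 11520 rows. The block with the length trend removed, the common sum or median-of-ratios scaling, all added after seeing the data, gave 66, 72 and 81. These stood against 4109 of 11122 rows, and 3986 and 4502 of 11520. In the first of these fits 2 genes fell, against 4440 rows. At an unadjusted p under 0.05 there were 7 higher and 0 lower without the filter and 6 higher and 0 lower without moderation. In males, none rose or fell without the filter, without moderation or with linear FPKM (limma; unadjusted, 2 higher and 3 lower, 0 higher and 0 lower and 5 higher and 3 lower). Over all rows, 1644 of 23360 rose and 2660 fell without the filter. Of 12269 rows, 354 rose and 481 fell without moderation, and 1761 and 2234 with linear FPKM. The common sum without the 83 genes and eBayes without trend gave 5 higher each, against 1664 and 2548 of 12269 rows. Removal of the length trend gave 8, against 3302 of 11718. With the block 44 rose and 11 fell, against 4312 and 5057 of 12269 rows. With the length trend also removed it was 44 and 15, against 4529 and 4490 of 11718. With the block and the common sum it was 13 and 5, against 2961 and 4923 of 12269. With the block and median of ratios it was 62 and 5, against 4996 and 4364 of 12269. Leaving out 1 library gave 3 to 26 higher and 1 lower in females, and 0 to 3 higher and 3 lower in males.

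The female median was 0.68 at a mean of at least 5 FPKM, with the common sum, with rows of status OK only and with further ribosomal protein genes added, 0.80 with the common sum without the 83 genes, 0.82 with median of ratios and 0.47 without the length trend. It was 0.35 without control 1, 1.02 without control 2, 1.03 without Snf5 CKO 1 and 0.34 without Snf5 CKO 2. Such fits set unequal shares of the replicate numbers against each other in both sexes. The male median turned to -0.033 and -0.016 under the 2 common sums and was 0.32 with median of ratios; it was -0.21, 0.64, 0.66 and -0.27 without control 1, control 2, Snf5 CKO 1 and Snf5 CKO 2. Over all loci the share was 8.07% in the controls and 15.4% in the Snf5 CKO libraries of females, and 12.0% in male controls and 13.7% in male Snf5 CKO, and it was 22.0% in male Snf5 CKO without the 10 most abundant other loci.

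Signs of uncalled genes turned, with or without the block where both were run. Female Rps20 was 0.11 with the common sum without the 83 genes, 0.13 with median of ratios and 0.068 without the length trend, and Rps27l was -0.061 in the last. Male Rps18 and Rps24 were -0.12 and -0.12 with the common sum and -0.10 and -0.11 without the 83 genes in it. With median of ratios male Rpl35a was 0.081, Rpl7l1 0.048, Rps4x 0.15, Rps6 0.078 and Rpsa 0.052, and Rps4x was 0.00179 with linear FPKM. Over the fits without 1 library, the female log2 change lay on both sides of 0 for Rpl22l1 (-0.031 to 0.46), Rpl35a (-0.071 to 0.55), Rplp1 (-0.40 to 0.63), Rps19 (-0.30 to 0.65), Rps20 (-0.42 to 0.36), Rps27l (-0.17 to 0.28), Rpsa (-0.030 to 0.82). The male one did so for Rpl12 (-0.23 to 1.13), Rpl35a (-0.46 to 0.30), Rpl36a (-0.032 to 1.06), Rpl7l1 (-0.25 to 0.027), Rplp1 (-0.34 to 0.85), Rplp2 (-0.14 to 0.77), Rps10 (-0.28 to 0.67), Rps18 (-0.41 to 0.55), Rps24 (-0.34 to 0.48), Rps26 (-0.22 to 0.74), Rps4x (-0.31 to 0.28), Rps6 (-0.33 to 0.16), Rpsa (-0.56 to 0.34). The cause of these shifts was not tested. The files give no read counts, so depth and counting error are unknown.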
